A study of Mus musculus with 6 samples.

Results

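The 10 genes described here encode neuropeptide precursors: Cck, Pdyn, Penk, Sst, Npy, Vip, Tac1, Crh, Adcyap1 and Nts. They were taken by symbol from the 55357 genes of the count files, and all 10 were among the 21876 genes that had at least 6 reads in at least 1 library and were tested. The genes were chosen with their values in this comparison already known, so their levels, differences and calls are given as a description and are no independent test. The data were poly(A) RNA-seq libraries of wild-type mouse neurons, grown as primary cultures of cortical and hippocampal cells from E18 C57BL/6N embryos. At DIV4 (days in vitro), the neurons of 3 libraries received a lentivirus with a scrambled shRNA (shCtrl) and those of 3 a lentivirus with sh2, a single shRNA sequence against the phospholipase gene Pla2g4e (shPla2g4e), and all were collected at DIV14. The amount of virus was set as the least that lowered the Pla2g4e transcript by about 50%, with the same amount of shCtrl virus, so that the cultures model a partial knockdown by 1 hairpin and not a loss of the gene.

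A neuropeptide is cut from a larger precursor in the secretory pathway, mostly at pairs of basic residues, by prohormone convertases, and many peptides are then amidated at their C terminus. The peptides are stored in dense-core vesicles, released mainly during sustained firing, and act on G protein-coupled receptors. In cortex and hippocampus, Sst, Npy, Vip, Tac1 and Crh mark classes of GABAergic interneurons. Cck and Adcyap1 are made by both interneurons and glutamatergic neurons, Pdyn and Penk by dentate granule cells and several other neurons, and Nts by sparse neurons. Transcription of several of these genes follows cAMP, calcium and the factor CREB.

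Counted reads ranged from 17054717 to 23570180 per library, and each member had between 42 (Nts) and 7332 (Cck) reads in a library. Pla2g4e measured 38.0, 35.1 and 35.4 CPM (reads relative to the library total, with TMM scaling) in shCtrl and 21.8, 14.1 and 18.7 CPM in shPla2g4e. The targeted gene was therefore lower in every shPla2g4e library, with a log2 fold change of −0.99 (SE 0.13, adjusted p = 0.00012, edgeR). The labelled cell type had its markers: in shCtrl, the vesicular glutamate transporter gene Slc17a7 was at 745 ± 96.99 CPM and Gad1, which encodes a GABA-synthesizing enzyme, at 379 ± 20.05 CPM (SD, n = 3). Slc17a7 was lower in shPla2g4e, at 299.6 ± 11.2 CPM (log2 fold change −1.31, SE 0.09, adjusted p = 3.7e-07). Astrocyte markers were also abundant, whereas the 10 microglial markers summed to at most 15.2 CPM in any library, and the vascular markers Cldn5 and Kcnj8 had no read. Nothing in the labels says whether the 3 libraries of a group came from separate cultures, so that the spread between them may be technical.

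The sequences printed first are those of the opioid units, because Pdyn and Penk encode several copies of the same short peptide. Pdyn and Penk had the largest log2 fold changes of the members (1.87 and 1.37, edgeR), with Nts next at 1.30. The coding sequence of Pdyn held 3 in-frame runs for Leu-enkephalin, the N terminus of the dynorphins and neoendorphins. That of Penk held 7 runs, 6 for Met-enkephalin, which differs in its last residue, and 1 for Leu-enkephalin, and none of the other 8 members held such a run. The 3 runs of Pdyn and 3 of the 7 of Penk are shown from 5′ to 3′, with the 5 enkephalin codons in capitals and 6 bases on either side, which encode a pair of basic residues on each side in all 6. They lie in the last exon of the genes, exon 4 of 4 in Pdyn and exon 2 of 2 in Penk, on the minus strand (GENCODE vM21, GRCm38).
Pdyn, codon 166, chr2:129688232-129688258: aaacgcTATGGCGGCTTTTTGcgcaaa
Pdyn, codon 202, chr2:129688124-129688150: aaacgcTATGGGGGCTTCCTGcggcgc
Pdyn, codon 221, chr2:129688067-129688093: aagcgcTATGGTGGTTTCCTGcggcgt
Penk, codon 100, chr4:4134328-4134354: aagaagTACGGAGGCTTCATGaaacgg
Penk, codon 136, chr4:4134220-4134246: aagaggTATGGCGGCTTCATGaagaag
Penk, codon 231, chr4:4133935-4133961: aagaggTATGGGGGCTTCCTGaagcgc

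Promoter windows are shown because several members are known targets of CREB, whose binding element is TGACGTCA (the CRE), often met in its shorter form TGACG. RefSeq windows of GRCm38.p6, from 250 bases before to 50 bases after the start site, matched 8 of the 10 members (not Penk or Crh), with 2 windows each for Pdyn and Adcyap1. The element TGACGTCA, searched on both strands, lay only in the Sst window among the 8, and 3.19% of the tested genes with a window had it. The shorter TGACG, of which the full element contains 1 on each strand, lay in 6 of the 8, those of Cck, Sst, Vip, Tac1, Adcyap1 and Nts, against 31.75% of the tested genes. It was not found in the windows of Pdyn and Npy. The sites are given 5′ to 3′ on the gene's strand, with the element in capitals (CGTCA is TGACG on the other strand), 1 for each gene with the one nearest the start site where there were more, and with the distance of the first base before the start site. A match in letters is not evidence that a factor binds there.
Sst, 48 bases before, chr16:23890874-23890903, minus strand: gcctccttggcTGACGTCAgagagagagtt
Cck, 47 bases before, chr9:121495726-121495752, minus strand: ctgctggactgCGTCAgcactgggtaa
Vip, 79 bases before, chr10:5639128-5639154, plus strand: gatcactactgTGACGtctttcgggga
Tac1, 43 bases before, chr6:7555007-7555033, plus strand: ctctacaggctCGTCAcgcctgagata
Adcyap1, 91 bases before, chr17:93198915-93198941, plus strand: gactaggatgcTGACGtcttttactga
Nts, 166 bases before, chr10:102490569-102490595, minus strand: ttagggaagatCGTCActttccatcaa

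The AP-1 element TGANTCA, searched on both strands, lay in the window of Nts alone among the 8 members, and in those of 6.88% of tested genes. TATAAA, the core promoter element, lay in windows of Vip and Adcyap1 and in those of 10.06% of tested genes. The guide strand of sh2 is the reverse complement of its target in exon 11 of 20 of Pla2g4e, in the coding sequence (chr2:120182753-120182771, GRCm38, minus strand).
sh2 guide, seed (bases 2 to 8) in capitals: tTGGCCACcaccatcttcc

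The site that pairs with this seed, GTGGCCA, was in none of the 3′ UTRs of the 10 members and in 17.4% of the 15744 tested genes with a 3′ UTR in the annotation. Among genes of the receptor, precursor, interneuron and activity lists named below as having fallen, Lhx6 held 2 sites. Satb1, Oprd1, Vipr1, Egr3 and Npas4 held 1 each, and Crhr1, Ntsr2, Apln, Slc32a1 and Egr1 none. The part of the seed in any difference was not tested.

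The precursor transcripts were together more abundant in the shPla2g4e libraries. The 10 genes summed to 446, 406 and 393 CPM in shCtrl and to 762, 743 and 762 CPM in shPla2g4e, a 1.82-fold difference between the means of 415 ± 27.4 and 756 ± 10.9 CPM (SD, n = 3). Cck alone made up 48.1% of the increase, Sst 15.4%, Adcyap1 11.4% and Npy 10.4%. The estimate was above 0 for all 10 members, with a median log2 fold change of 0.97, beside 0.03 over all genes tested. In 6 of the 10 (Cck, Pdyn, Penk, Sst, Npy and Nts) the estimate passed an adjusted p of 0.01 upward, as did 2.48% of all genes tested, and in 0 downward, as did 4.0% (edgeR; also 0 with limma, with DESeq2 and at an unadjusted p of 0.05). Scaled by library size alone instead of by TMM, the split over all genes was 796 that rose and 609 that fell, against 543 and 876. With the replicate number as a block, 9 of the 10 passed upward (6.50% of all genes) and 0 downward (9.02% of all genes). Every shPla2g4e library lay above every shCtrl library for 7 members and overlapped for Vip, Tac1 and Crh. Over all genes tested, the libraries were apart in this way for 15.5%, and apart with shPla2g4e below for 14.6%. These counts describe genes picked for their difference, and nothing is read from them. In bulk RNA, more transcript per cell and more cells of a type cannot be told apart.

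**Figure D1:**
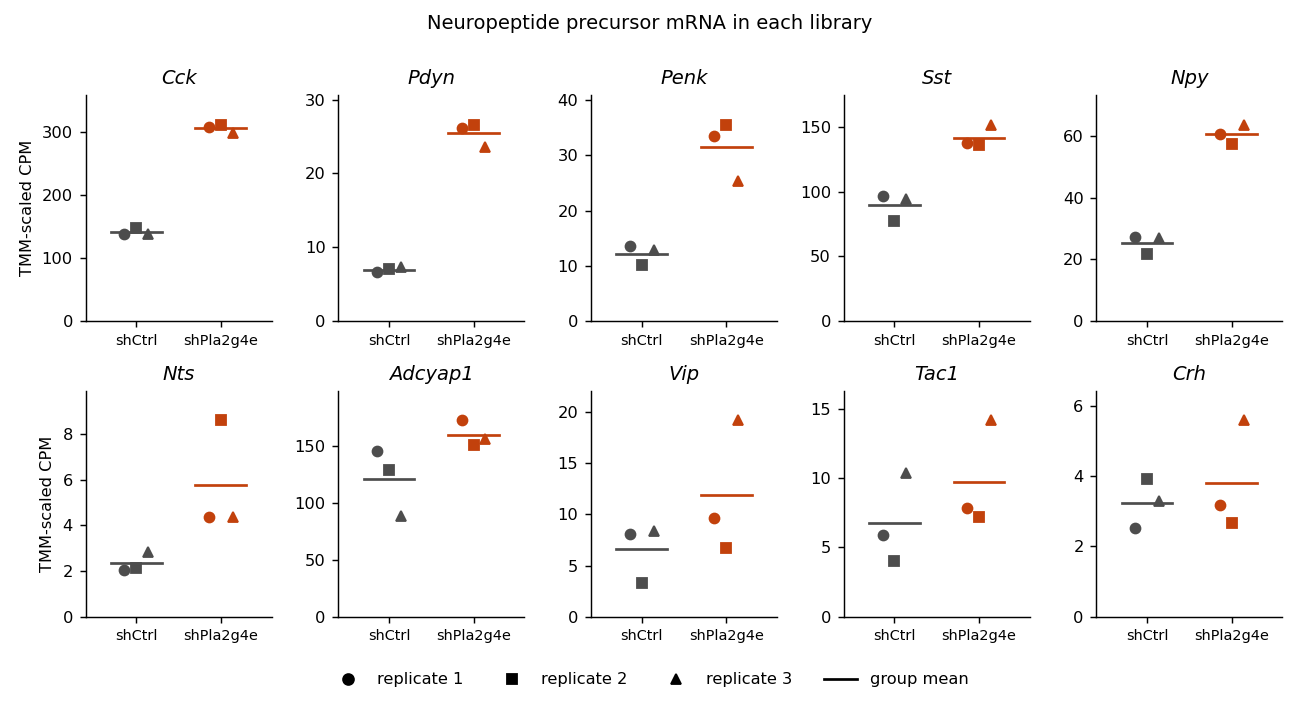
TMM-scaled CPM of each precursor in the 3 shCtrl (grey) and 3 shPla2g4e (orange) libraries, with a marker for each replicate number and a bar for the group mean; each vertical axis starts at 0. The groups are apart for Cck, Pdyn, Penk, Sst, Npy, Nts and Adcyap1 and overlap for Vip, Tac1 and Crh.

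Pdyn encodes prodynorphin, whose peptides act mainly on the kappa opioid receptor (ENSMUSG00000027400, chromosome 2, 129528485 to 129541764, minus strand; this and the following gene coordinates are GRCm39). It measured 6.60, 7.05 and 7.28 CPM in shCtrl and 26.2, 26.6 and 23.6 CPM in shPla2g4e. The lowest shPla2g4e library was 3.24 times the highest shCtrl library, and the log2 fold change of 1.87 (SE 0.12, 3.65-fold) was the largest of the 10. Only 23 of the 12562 genes tested that were at least as abundant as the least abundant member had a larger one. Penk encodes proenkephalin, the main source of Met-enkephalin, which acts on delta and mu opioid receptors (chromosome 4, 4133531 to 4138819, minus strand). Its level was 13.6, 10.2 and 12.8 CPM in shCtrl and 33.5, 35.6 and 25.3 CPM in shPla2g4e, a log2 fold change of 1.37 (SE 0.14, 2.59-fold). Both opioid precursors thus stood clear of the controls, Pdyn with a coefficient of variation of 4.98% and 6.47% within the groups and Penk with 14.7% and 17.3%. Of the exon bases of Penk, 14.3% overlap a gene on the other strand, and the counting had no strand option; the other 9 members have no such overlap.

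Cck encodes procholecystokinin, whose amidated peptides act on the CCK-B receptor in the brain (chromosome 9, 121318890 to 121324760, minus strand). It measured 138, 148 and 138 CPM in shCtrl and 307, 311 and 298 CPM in shPla2g4e, a log2 fold change of 1.11 (SE 0.08, 2.16-fold). It was the member with the smallest spread, with a coefficient of variation of 3.80% in shCtrl and 2.18% in shPla2g4e, and the ratio within each pair of equal replicate numbers was 2.22, 2.11 and 2.15. The lowest shPla2g4e library was 2.02 times the highest shCtrl library.

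Sst encodes somatostatin, the inhibitory peptide of a large class of interneurons that contact dendrites (chromosome 16, 23708323 to 23709708, minus strand). It was at 96.7, 77.6 and 94.1 CPM in shCtrl and at 137, 136 and 152 CPM in shPla2g4e, a log2 fold change of 0.66 (SE 0.09, 1.59-fold). Npy encodes neuropeptide Y, which reduces glutamate release and is made by many of the same interneurons (chromosome 6, 49799690 to 49806487, plus strand). It was at 27.3, 21.6 and 27.0 CPM in shCtrl and at 60.5, 57.4 and 63.7 CPM in shPla2g4e, a log2 fold change of 1.26 (SE 0.10, 2.39-fold). Neither gene overlapped between the groups, and the shCtrl library of replicate 2 was the lowest of the 6 for both. Within pairs the ratio was 1.42 to 1.76 for Sst and 2.22 to 2.66 for Npy, so that the highest Sst ratio lay below the lowest of Npy.

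Vip, Tac1 and Crh overlapped between the groups. Vip encodes vasoactive intestinal peptide, which marks interneurons that inhibit other interneurons (chromosome 10, 5589218 to 5597617, plus strand). It was at 8.10, 3.32 and 8.35 CPM in shCtrl and at 9.62, 6.75 and 19.2 CPM in shPla2g4e, a log2 fold change of 0.83 (SE 0.33). Tac1 encodes the precursor of substance P and neurokinin A (chromosome 6, 7554879 to 7565834, plus strand). It was at 5.92, 4.03 and 10.3 CPM in shCtrl and at 7.86, 7.17 and 14.2 CPM in shPla2g4e, a log2 fold change of 0.51 (SE 0.29). In both groups replicate 2 was the lowest and replicate 3 the highest library for both of these genes. The ratio within pairs was therefore steadier than the levels, at 1.19, 2.03 and 2.30 for Vip and 1.33, 1.78 and 1.37 for Tac1. Both estimates missed 0.01 in the fit without the replicate block and passed with it, at log2 fold changes of 0.82 and 0.55. Single libraries moved both estimates: Vip went to 0.31 without shPla2g4e replicate 3 and to 0.51 without shCtrl replicate 2. Tac1 went to 0.14 without shPla2g4e replicate 3, to 0.25 without shCtrl replicate 2 and to 0.96 without shCtrl replicate 3. Crh encodes corticotropin-releasing hormone, the peptide that starts the stress axis and that some cortical interneurons make (chromosome 3, 19747565 to 19749560, minus strand). With 2.52, 3.93 and 3.29 CPM in shCtrl and 3.18, 2.68 and 5.60 CPM in shPla2g4e, its log2 fold change was 0.22 (SE 0.28). The ratio within pairs was 1.26, 0.683 and 1.70, and without the shPla2g4e library of replicate 3 the estimate turned to −0.14. Crh is thus the one member whose pairs went in both directions, at 52 to 98 reads per library.

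Adcyap1 encodes PACAP, a peptide related to VIP that raises cAMP through its receptor (chromosome 17, 93506445 to 93513965, plus strand). It was at 145, 129 and 88.9 CPM in shCtrl and at 173, 151 and 156 CPM in shPla2g4e, a log2 fold change of 0.40 (SE 0.13). The groups were adjacent, the lowest shPla2g4e library being 1.04 times the highest shCtrl library, and the shCtrl library of replicate 3 was low. The estimate missed 0.01 without the replicate block and passed with it (0.43), and the ratio within pairs was 1.19, 1.17 and 1.76. Without shCtrl replicate 3 the estimate was 0.22. Nts encodes neurotensin (chromosome 10, 102317617 to 102326347, minus strand). Its 42 to 186 reads per library gave 2.04, 2.11 and 2.84 CPM in shCtrl and 4.35, 8.60 and 4.34 CPM in shPla2g4e, a log2 fold change of 1.30 (SE 0.28). A single library, shPla2g4e replicate 2, was nearly 2 times as high as the other shPla2g4e libraries, and without it the estimate was 0.89 and no longer passed. It also missed 0.01 without shCtrl replicate 1 (1.21), without shCtrl replicate 2 (1.24) and with limma after voom (1.24).

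**Figure D2:**
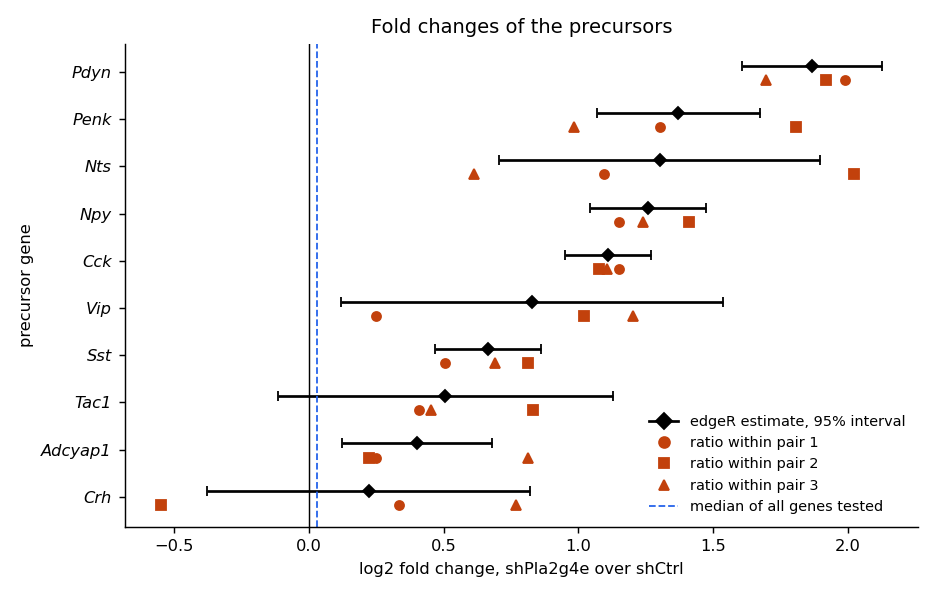
log2 fold change of each precursor, shPla2g4e over shCtrl (horizontal axis): black diamonds are edgeR estimates with 95% intervals, orange markers the log2 ratio within each of the 3 replicate pairs, and the dashed line the median of all genes tested (0.03). Of the 30 ratios within pairs, 29 lie above 0 on this scale, the exception being pair 2 of Crh.

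Per kilobase of exon, the members spanned a wide range of levels. In shCtrl, Sst had 124 ± 14.4 and Cck 108 ± 4.11 CPM per kb (SD, n = 3), and their ranges over libraries overlapped. Npy (44.7 ± 5.65) and Adcyap1 (32.1 ± 7.69) followed, again with overlapping ranges, and then Penk (7.45 ± 1.09), apart from both its neighbours. For Crh (2.46 ± 0.532), Pdyn (2.42 ± 0.120), Tac1 (1.99 ± 0.954), Vip (1.94 ± 0.833) and Nts (1.87 ± 0.356), each range overlapped the next. Neighbours could therefore not be ordered, though the lowest Pdyn library (2.285) lay just above the highest Nts library (2.277). Sst and Cck stood above 99.1% and 98.9% of the tested genes on this scale, and Nts above 47.5%. In shPla2g4e, Cck (234 ± 5.09 CPM per kb) stood above Sst (197 ± 12.1) with no overlap, and Npy (107 ± 5.55), Adcyap1 (42.3 ± 3.01), Penk (19.3 ± 3.33) and Pdyn (8.83 ± 0.571) followed, each apart from the next. Pdyn was thus apart from the lowest genes in shPla2g4e, and 2 of the 3 shPla2g4e libraries held more Pdyn per kb than any shCtrl library held Penk (8.31 CPM per kb at most). The order depends on the gene length: with the length of the longest coding transcript in place of all exon bases, Cck came before Sst in shCtrl and only 4 members kept their place.

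**Figure D3:**
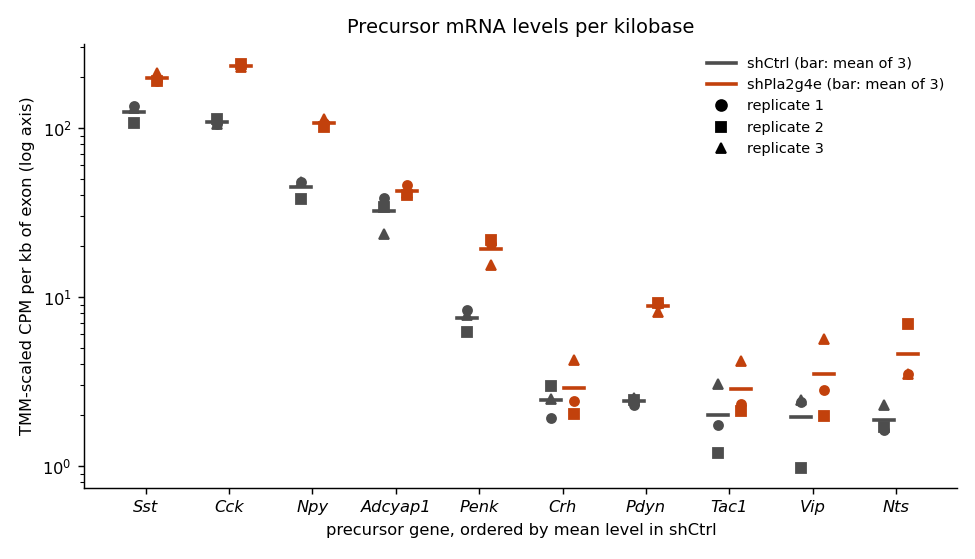
TMM-scaled CPM per kilobase of exon (log axis) of each precursor, ordered by the shCtrl mean, for the 3 shCtrl (grey) and 3 shPla2g4e (orange) libraries; bars are group means and markers replicate numbers. Levels run from about 2 for the 5 lowest genes in shCtrl to 234 for Cck in shPla2g4e.

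The genes whose profile over the 6 libraries was most like that of Cck and Pdyn were sought among the 10932 genes with a mean of at least 8 CPM, by the root mean square difference of log2 levels centred on the shCtrl mean. For Cck they were Otud1 (0.10), a deubiquitinase gene, Dusp1 (0.11), a phosphatase gene induced by activity, and the imprinted gene Peg10 (0.12). Dusp1 had 33.8 ± 2.64 CPM in shCtrl and 71.7 ± 4.35 CPM in shPla2g4e, and its estimate of 1.08 on the log2 scale stood beside the 1.11 of Cck. For Pdyn they were Gm47163 (0.19), Nabp1 (0.24) and Kctd4 (0.30), which rose by 1.92, 1.65 and 1.46 on the log2 scale. The likeness is a description over 6 libraries.

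Of 27 receptor and binding protein genes of the 10 peptides, 23 were tested, of which 1 rose, 2 fell and 20 did not pass (adjusted p of 0.01, edgeR); with the replicate block 4 rose and 4 fell. Over all genes tested, 2.48% rose and 4.0% fell, or 6.50% and 9.02% with the block. Their median log2 fold change was 0.07, beside 0.03 over all genes. The one that rose was Crhbp, the secreted protein that binds CRH and marks a subset of Sst interneurons, at 21.5, 15.7 and 21.4 CPM in shCtrl and 55.9, 92.2 and 42.4 CPM in shPla2g4e (log2 fold change 1.70, SE 0.21, adjusted p = 6e-05). The CRH receptor gene Crhr1 fell, from 70.0, 80.3 and 67.3 CPM to 48.2, 26.7 and 50.4 CPM (−0.80, SE 0.17, adjusted p = 0.0043). So the binding protein and the main receptor of CRH changed in opposite directions while Crh itself overlapped between the groups, and the shPla2g4e library of replicate 2 was the extreme one for both. The delta opioid receptor gene Oprd1 fell, from 15.5, 11.9 and 15.6 CPM to 9.54, 8.74 and 6.80 CPM (−0.77, SE 0.16, adjusted p = 0.0042). Without 1 of the libraries the calls of Crhr1 (shCtrl replicate 1 or 2, adjusted p of 0.0119 and 0.0329) and Oprd1 (shCtrl replicate 1 or 3, adjusted p of 0.0215 and 0.0206, or shPla2g4e replicate 2, 0.01002) were lost, and that of Crhr1 also with DESeq2 (0.0359).

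Beside Penk and Pdyn, the mu receptor gene Oprm1 (2.05 ± 0.418 and 1.48 ± 0.252 CPM) and the kappa receptor gene Oprk1 (0.838 ± 0.437 and 0.889 ± 0.0491 CPM) were low in both groups (SD, n = 3). Beside Cck, the CCK-B receptor gene Cckbr was at 48.4, 52.7 and 52.5 CPM in shCtrl and 62.0, 62.2 and 75.4 CPM in shPla2g4e (0.38, SE 0.09). It missed the threshold without the replicate block (adjusted p = 0.013, edgeR) and passed with it (adjusted p = 0.00011), and the CCK-A receptor gene Cckar was too low to test. Beside Npy, Npy1r was at 25.8 ± 2.02 and 33.3 ± 3.48 CPM (adjusted p = 0.031, and 0.0019 with the replicate block, edgeR). Of the somatostatin receptor genes, Sstr2, at 26.02 ± 1.42 and 31.2 ± 4.68 CPM, and Sstr1, Sstr3 and Sstr4 did not pass in either fit. Adcyap1r1, the PACAP receptor gene, was at 200 ± 11.5 and 201 ± 14.6 CPM, a log2 fold change of 0.01 with a 95% interval of −0.17 to 0.18. Among the receptors of the other peptides, the neurotensin receptor Sort1 (sortilin, 417 ± 22.7 and 407 ± 29.9 CPM) did not pass, and neither did Ntsr1 or Ntsr2, Vipr1 or Vipr2, and Tacr1 or Tacr3; of these, Ntsr2 (−0.38, adjusted p = 0.00088), Vipr1 (−0.36, 0.0069) and Tacr1 (0.56, 0.0035) passed with the replicate block.

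**Figure D4:**
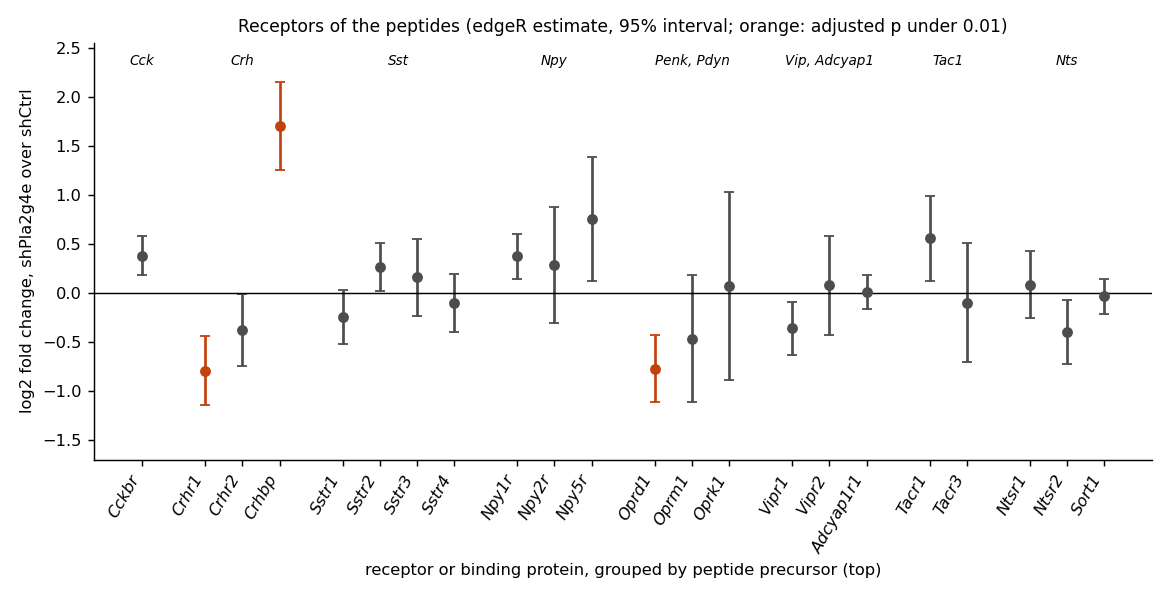
log2 fold change (edgeR, 95% interval) of the receptor and binding protein genes of the peptides, grouped by precursor; orange marks an adjusted p under 0.01 and grey the rest. Crhbp is the one gene that rose (1.70), Crhr1 and Oprd1 fell, and most intervals reach 0 or lie near it.

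Of 54 further precursor genes, 34 were tested, of which 2 rose, 1 fell and 31 did not pass, beside 2.48% and 4.0% of all genes. With the replicate block 4 rose and 1 fell (6.50% and 9.02% of all genes), the additional calls being Pnoc and Adm, the adrenomedullin precursor (0.52, adjusted p = 0.0054; 0.15 without the block, edgeR). Over the 16 with a mean of at least 1 CPM, the median log2 fold change was 0.29. Pthlh, which encodes parathyroid hormone-related protein, rose from 8.83, 5.74 and 9.63 CPM to 21.8, 15.9 and 17.6 CPM (1.19, SE 0.18, adjusted p = 0.00034). Tac2, the neurokinin B precursor and a relative of Tac1, rose from 2.33, 1.61 and 2.58 CPM to 5.10, 6.33 and 3.43 CPM (1.19, SE 0.27, adjusted p = 0.0072), a call lost without any 1 of shCtrl replicates 1, 2 and 3 and shPla2g4e replicates 1 and 2 (adjusted p up to 0.047). Apln, which encodes apelin, fell from 4.07, 6.44 and 6.30 CPM to 1.76, 0.555 and 2.63 CPM (−1.79, SE 0.37, adjusted p = 0.0039), and did not pass without shCtrl replicate 2, shCtrl replicate 3 or shPla2g4e replicate 1 (adjusted p of 0.013 to 0.026). Cort, a somatostatin relative, did not pass, at 28.3, 18.8 and 31.3 CPM in shCtrl and 26.1, 17.9 and 45.7 CPM in shPla2g4e, nor did Nppc, the precursor of C-type natriuretic peptide, at 35.0 ± 2.29 and 40.2 ± 1.78 CPM. Pnoc, the nociceptin precursor of the opioid family, was at 31.3 ± 4.11 and 38.7 ± 5.05 CPM (0.31; adjusted p = 0.099, and 0.0064 with the replicate block, edgeR). So Sst was higher while Cort overlapped between the groups, and the opioid relatives Pdyn and Penk had larger estimates than Pnoc.

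Of 8 genes of peptide processing, 1 rose and 0 fell (0 also with limma and DESeq2, and 0 at an unadjusted p of 0.05), and with the replicate block 3 rose (Pam, Scg5 and Ctsl). The shares over all genes were again 2.48% and 4.0%, or 6.50% upward with the block. Pam, which amidates peptides such as CCK, NPY and VIP, rose from 335, 265 and 288 CPM to 452, 413 and 441 CPM (0.56, SE 0.09, adjusted p = 0.00071; 0.0123 without shCtrl replicate 2). Scg5, the convertase 2 chaperone, was at 125 ± 10.8 and 159 ± 17.3 CPM (0.35, adjusted p = 0.022, and 2.5e-05 with the replicate block). The convertase genes did not pass in either fit: Pcsk1 had a log2 fold change of 0.06 (95% interval −0.14 to 0.26) and Pcsk2 one of −0.10 (−0.34 to 0.14). Neither did Cpe, the carboxypeptidase that trims the cut peptides, at 1516 ± 132 and 1536 ± 217 CPM. These additional genes were picked for naming with their values known.

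Of 32 interneuron markers, 1 rose (Tac2), 9 fell and 22 did not pass, with a median log2 fold change of −0.24; with the replicate block 2 rose and 12 fell, and with scaling by library size alone 2 rose and 6 fell. Over all genes 543 rose and 876 fell (6.50% and 9.02% with the block), a split that the same scaling turned to 796 and 609. Summed over the list, they were at 2228 to 2324 CPM in shCtrl and 1683 to 1835 CPM in shPla2g4e. Lhx6, the transcription factor of interneurons from the medial ganglionic eminence, which include the Sst and many Npy cells, was at 29.3, 24.9 and 26.7 CPM in shCtrl and 15.9, 12.6 and 13.9 CPM in shPla2g4e (−0.93, SE 0.12, adjusted p = 9.1e-05). Satb1, which Sst interneurons need to mature, went from 196, 208 and 167 CPM to 107, 98.3 and 99.7 CPM (−0.90, SE 0.09, adjusted p = 8.1e-06). Slc32a1, the vesicular GABA transporter gene, also fell, from 60.8 ± 2.94 to 39.1 ± 0.399 CPM (−0.64, adjusted p = 9.2e-05), and another gene lies opposite 24.9% of its exon bases. Gad1 was at 379 ± 20.05 and 333 ± 26.7 CPM and did not pass (adjusted p = 0.17). The part of interneuron numbers in the differences of Sst and Npy was not tested.

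Of 26 genes induced by neuronal activity, 9 rose and 0 fell (0 also with limma and DESeq2, and 3 at an unadjusted p of 0.05), with a median log2 fold change of 0.34; with the replicate block 15 rose and 3 fell. Scaled by library size alone, 13 of the list rose, and 796 of all genes. Upward and downward calls made up 2.48% and 4.0% of all genes, or 6.50% and 9.02% with the block. Dusp1 rose by 1.08 (SE 0.09, adjusted p = 1.7e-06) and Ptgs2, which encodes cyclooxygenase 2, from 13.5, 6.44 and 14.4 CPM to 74.7, 68.7 and 36.1 CPM (2.38, SE 0.26, adjusted p = 1.7e-05). Vgf, itself the precursor of secreted peptides, rose from 835, 739 and 598 CPM to 1329, 1516 and 1160 CPM (0.88, SE 0.12, adjusted p = 0.00012), and Btg2 from 18.2 ± 0.752 to 34.2 ± 8.02 CPM (0.91, SE 0.14, adjusted p = 0.00039). The list was not uniform: Egr1, at 218 ± 10.2 and 180 ± 18.2 CPM, did not pass (−0.28, adjusted p = 0.046) and fell with the replicate block (adjusted p = 0.00046). Egr3 (−0.42) and Npas4 (−0.41) also did not pass and fell with the block (adjusted p of 7.1e-07 and 1.3e-05, edgeR). Leaving out 1 library left 7 to 11 of the list that rose.

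**Figure D5:**
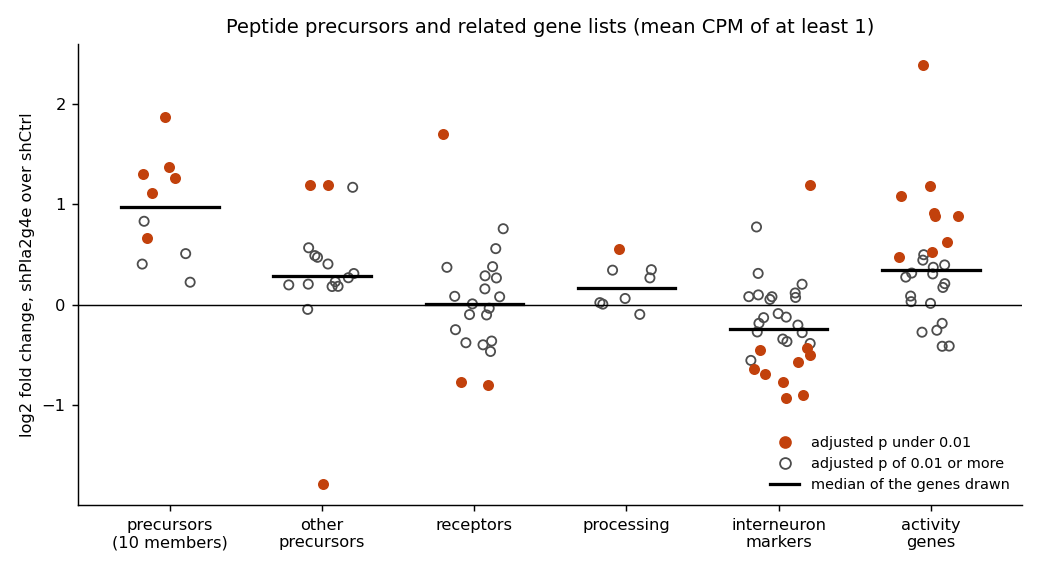
log2 fold change of the genes with a mean of at least 1 CPM in each list (vertical axis), filled orange at an adjusted p under 0.01 and open otherwise, with a bar at the median of the genes drawn. The medians are 0.97 for the 10 precursors, 0.29 for other precursors, 0.01 for receptors, 0.16 for processing genes, −0.24 for interneuron markers and 0.34 for activity genes.

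Markers of other cell types were measured in the same libraries, and their counts stand beside 2.48% of all genes that rose and 4.0% that fell, or 6.50% and 9.02% with the replicate block. Glutamatergic markers summed to 3070 to 3343 CPM in shCtrl and 2285 to 2673 CPM in shPla2g4e, with 2 of 14 rising (Slc17a6 and Rorb) and 3 falling (Slc17a7, Neurod6 and Nrgn). With the replicate block more of these markers passed, among them Neurod2 upward and Cux2 downward. Astrocyte markers summed to 2980 to 3807 and 2052 to 3246 CPM, with 0 of 11 rising and 3 falling (Aqp4, Gja1 and Slc1a2), or 1 (S100b) and 7 with the block. Dentate granule markers, the list of the cells rich in Pdyn and Penk, summed to 229 to 260 and 234 to 251 CPM, with 1 of 10 rising (Npnt; also C1ql3 with the block) and 1 falling (Stxbp6), and their defining factor Prox1 at 12.1 ± 1.04 and 14.97 ± 3.35 CPM. Striatal markers, another cell source of both opioid precursors, summed to 236 to 244 and 230 to 248 CPM, with a median log2 fold change of −0.04. Oligodendrocyte markers (525 to 594 and 550 to 652 CPM) and vascular markers (42.8 to 45.8 and 45.006 to 57.0 CPM) had no gene that passed, nor did any of the 8 microglial markers tested (6.45 to 15.2 and 3.70 to 7.77 CPM over 10 listed). With the block, the vascular markers Col1a1 and Col1a2 rose and the oligodendrocyte marker Olig2 and the microglial marker C1qc fell. These marker genes were picked for naming with their values known. The part of these cells in the differences of the members was not tested.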

How the data were processed

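The authors aligned the reads with STAR 2.7.0d and counted them per gene with featureCounts 1.6.0 (versions from the submitters' processing notes), and deposited raw counts for each of the 6 libraries. Per the file headers, the annotation was GENCODE vM28 (GRCm39) and no strand or pair option was given, so that reads of genes that overlap on opposite strands could not be told apart. Both mates of a fragment may also have been counted as separate reads, so that a count may stand for fewer fragments. The counts of Nts and Crh were even numbers in every library. Groups and replicate numbers came from the sample labels.

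The counts were analysed in R 4.3.3 with edgeR 4.0.16. A gene was tested if any 1 library held 6 or more of its reads, TMM factors were computed, and shPla2g4e was compared with shCtrl by the quasi-likelihood test, with Benjamini-Hochberg adjustment over all 21876 genes and a threshold of 0.01. Tests were two-sided, and a log2 fold change is shPla2g4e over shCtrl. The fit was tested on simulated counts. The alternatives were limma 3.58.1 after voom, DESeq2 1.42.0, 2 other scalings, 2 other filters, a threshold of 0.05, leaving out each library, and a replicate block. Deviations from the group means correlated between libraries of the same replicate number (r of 0.394, 0.182 and 0.463 over 10932 genes with a mean of at least 8 CPM) and ranged from −0.399 to 0.115 between different numbers, so the numbers were taken to pair the libraries. The labels do not say what the numbers share.

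The members and gene lists were chosen with earlier results of these data known. By rule, the text named all members, from the lists of other precursors, receptors, interneuron markers and activity genes the 4 genes with the smallest p that passed and the 2 with the highest mean CPM, of the processing genes the 2 with the smallest p, the 3 profiles closest to Cck and to Pdyn, and Pla2g4e, with receptors beside their peptide. Other genes were named after their values were seen. Some genes that the rule would name are not reported here. Levels per kilobase used the exon bases of the count files, and sequences came from the GENCODE vM21 transcripts and RefSeq promoters of GRCm38, of which only the sequence and its own coordinates were used.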

Additional observations from a re-analysis of the deposited data

How the results depend on the processing

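Of 140 fits of the 10 members under the alternatives, 130 kept their direction and their side of the threshold. Crh ranged from −0.1448 (without shPla2g4e replicate 3) to 0.4216 (without shPla2g4e replicate 2) on the log2 scale, 4 fits of Nts no longer passed, and 5 fits of Vip, Tac1 and Adcyap1 passed that had not. Leaving out 1 library left 5 to 6 members that passed. The replicate block moved 3 members past the threshold and changed no other call among them. The order of levels per kilobase kept 4 of 10 places with the length of the longest coding transcript and 10 of 10 with library size alone.

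The replicate block rests on the numbers being taken to pair the libraries, which the labels do not state. With the block, 1422 of all genes rose and 1973 fell, against 543 and 876 without it. Among the lists, the paired fit gave 4 other precursors that rose, 4 receptors that rose and 4 that fell, 3 processing genes and 2 interneuron markers that rose, and 15 activity genes that rose and 3 that fell. Without a filter on low counts, 989 genes rose and 1360 fell, with 2 receptors, 2 processing genes and 2 interneuron markers that rose and 2 activity genes that fell. At 0.05 the numbers were 1214 and 1599, with 3 receptors, 2 processing genes, 2 interneuron markers and 14 activity genes that rose and 2 activity genes that fell. Scaling by library size alone gave 3 receptors, 2 processing genes and 2 interneuron markers that rose. DESeq2 gave 2 receptors and 2 processing genes that rose and 1 receptor that fell. Limma after voom gave 1 other precursor and 0 interneuron markers that rose, as did the filter of 10 reads in every library. Over the fits without 1 library, 246 to 681 genes rose and 449 to 932 fell, both fewest without shCtrl replicate 2. In these fits, 1 to 3 other precursors rose and 0 to 1 fell, 1 to 2 receptors fell, 0 to 2 processing genes rose, 0 to 1 interneuron markers rose, and 0 to 2 activity genes fell. The causes were not tested. The SE of the log2 fold change was largest for Vip (0.33), Tac1 (0.29), Crh (0.28) and Nts (0.28), members with low counts. Pdyn, at a similar shCtrl mean (6.97 CPM, beside 6.59 for Vip), had an SE of 0.12. Its coefficient of variation was 4.98% in shCtrl and 6.47% in shPla2g4e, against 43.0% and 55.0% for Vip.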
